A study of Mus musculus with 7 samples.

Results

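The probes described here detect microRNAs with the seeds of miR-23a-3p, miR-27a-3p and miR-24-3p, the main products of a pair of mouse gene clusters. A seed is the stretch of bases 2 to 8 from the 5′ end, by which a microRNA recognises most of its targets. Each probe's target was read from its sequence, and a probe was a member if target bases 2 to 8 equalled those of the mature mouse microRNA in RefSeq. Of 1874 probes on the array, 13 were members: 5 with the miR-23 seed, 7 with the miR-27 seed and 1 with the miR-24 seed. Probes for the same target with different ends were merged, which left 9 member targets among 1753 targets in all.

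The Mir23a cluster holds Mir23a, Mir27a and Mir24-2, and the Mir23b cluster holds Mir23b, Mir27b and Mir24-1, each transcribed as one primary RNA that is cut into separate hairpins. In RefSeq (GRCm38.p6) the first lies on the + strand at chr8:84208518-84208921, and the next gene, 2021 nucleotides further on, is Zswim4. The second lies on the + strand at chr13:63300484-63301275, within the span of the protein-coding gene Aopep. Both clusters give the same mature miR-24-3p, so the array cannot assign it to a cluster. In mouse CD4 T cells miR-24 and miR-27 are known to limit production of the cytokine IL-4, and miR-27 also represses the transcription factor gene Gata3. In CD8 T cells miR-23a is known to restrain cytotoxic function.

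The mature mouse sequences from RefSeq (GRCm38.p6) are shown to make the shared seeds visible, with the seed in capitals.
miR-23a-3p: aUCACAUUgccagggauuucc
miR-27a-3p: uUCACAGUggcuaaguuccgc
miR-27b-3p: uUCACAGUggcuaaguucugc
miR-24-3p: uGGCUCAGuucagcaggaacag

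The 9 member targets on the array, written as DNA with the seed in capitals, show how little the miR-27 seed targets differ beyond the seed.
UC1004827: aTCACATTgccagggatttcca
UC1004830: aTCACATTgccagggattacca
UC1005049: tTCACATTgtgctactgtctgc
UC1004832: tGGCTCAGttcagcaggaacag
UC1004848: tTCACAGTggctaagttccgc
UC1004851: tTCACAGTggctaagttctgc
UC1004856: tTCACAGTggctaagttcttca
UC1004857: tTCACAGTggctaagttcagtg
UC1004854: tTCACAGTggttaagttctgc

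UC1004827 is called the miR-23a target and UC1004830 the miR-23b target here, the second because its target lies within the Mir23b hairpin. Between them stands 1 difference, T19A, with the base of miR-23a first and positions counted from 1 at the 5′ end; differences from miR-27a-3p are written in the same way. UC1004832 is the miR-24 target, UC1004848 the miR-27a target and UC1004851 the miR-27b target. The miR-27b target differs from miR-27a-3p by C19T. UC1004856 (C19T and G20T), UC1004857 (C19A and C21T) and UC1004854 (C11T and C19T) have no matching mature mouse name. UC1005049 shares only the miR-23 seed, with 12 differences from miR-23a-3p elsewhere, and lies in no mouse hairpin of RefSeq.

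The 7 arrays measured small RNA of CD4 T cells carrying DO11.10 (D011.10 in the sample titles), a T cell receptor for an ovalbumin peptide. The sOVA host group (3 arrays) was sorted as CD44 high 5 days after DO11.10 cells from Rag2-/- mice were transferred into sOVA mice, which are known to carry a transgene for secreted ovalbumin. For the WT host group (2 arrays) the same kind of donor cells went into wild-type Balb/c mice and were sorted in the same way. Hosts received peptide-loaded, LPS-activated dendritic cells intravenously 24 h after transfer; the titles, however, name the immunization as sOVA for the sOVA host and OVA for the other. The naive group (2 arrays) was never transferred: CD25- CD44 low cells were sorted from mice that carry the same receptor and are Rag2+/+. All mice were Balb/c and aged 6 to 8 weeks, and cells came from pooled spleens and lymph nodes. Naive and activated cells thus differed in Rag2 genotype and sort as well as in activation. The labels do not give the promoter of the sOVA transgene. Whether replicates came from separate pools of mice is not stated either, and the p-values then cover only the spread from array to array, part or all of which may be technical. In such bulk RNA, fewer cells that express a microRNA and less of it per cell cannot be told apart. Naive cells were the baseline for both hosts, so the comparisons with naive cells share their control arrays.

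Signal was expressed as log2 relative to each array's 75th percentile over 253 probes detected on all arrays. A probe was detected if at least 50% of its 7 spots were well above background, which held for 309 to 467 probes per array. No spot was saturated. The dimmest arrays were sOVA host replicate 3 and WT host replicate 2, both in row 2 of the slide. Naive replicate 2, in the same row, was the brightest array. Over 342 tested targets, sOVA host replicate 3 correlated with WT host replicate 2 at r = 0.97, but with sOVA host replicates 1 and 2 at r = 0.91 and 0.88. It therefore stood apart from its own group, and results that rest on it are given with and without it. In a check of cell type, miR-142a-3p, miR-142a-5p, miR-342-3p and miR-181a-5p, known from lymphocytes, were detected on all 7 arrays, and miR-150-5p was not matched to a probe. Probes for the liver, stromal, muscle and neural marker names were not matched. Among markers of other cells, the erythroid miR-451a was detected on all 7 arrays, at -1.09, -4.12 and 0.94 in the sOVA host, -3.33 and -1.80 in the WT host and -0.97 and -1.84 in naive cells. The erythroid miR-144-3p was detected on 0 arrays. The myeloid miR-223-3p was detected on 2 of 3 sOVA host, 1 of 2 WT host and both naive arrays. Its log2 change from naive was -2.68 in the sOVA host and -3.04 in the WT host (adjusted p = 0.0221 and 0.0161, limma). Both changes include values not well above background, so their size is uncertain. The endothelial miR-126a-3p was detected on 1 naive array only. Of the 4 epithelial markers, miR-200a-3p and miR-200b-3p were detected on naive arrays only, and miR-200c-3p and miR-141-3p on 5 arrays each. In the fit miR-200a-3p was lower than naive in the sOVA host and the WT host (adjusted p = 0.0165 and 0.00403, limma), and miR-200b-3p passed as lower in the WT host (adjusted p = 0.019, limma) but not in the sOVA host (adjusted p = 0.0768, limma). Neither was well above background on any activated array, so no fold is given. Their part in the results below was not tested.

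Of the 9 member targets, 7 entered the test because all arrays of some group detected them, and 6 of these were detected on all 7 arrays. UC1005049 and UC1004854 were not well above background on any array and were not tested. UC1004854 is 1 base away from the miR-27b target (C11T). The 7 spots of a tested member agreed on each array, with an SD between 0.02 and 0.14 log2 units. Since the filter admits a target through the group where it is high, counts over the 7 are descriptions.

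The miR-23a and miR-23b targets were higher in sOVA host cells than in naive cells. The miR-23a target was at 1.09, 1.26 and 0.63 in the sOVA host, 0.16 and 0.00 in the WT host and -0.24 and -0.65 in naive cells, in log2 units relative to the array's 75th percentile. The groups followed one another without overlap, with the sOVA host highest and naive lowest. Between the sOVA host (0.99 ± 0.32, SD, n = 3) and naive cells (-0.45 ± 0.29, SD, n = 2) the fitted log2 change was 1.44 ± 0.30 (SE), 2.72-fold (adjusted p = 0.0221, limma). The miR-23b target was at 0.20, 0.29 and 0.42 in the sOVA host, 0.00 and -0.22 in the WT host and -0.84 and -1.28 in naive cells. It had the narrowest spread of the 5 mouse targets in the sOVA host, and again no groups overlapped. Its log2 change between the sOVA host (0.30 ± 0.11, SD, n = 3) and naive cells (-1.06 ± 0.31, SD, n = 2) was 1.36 ± 0.26 (SE), 2.56-fold (adjusted p = 0.0206, limma).

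These were the 2 members of 7 called at an adjusted p under 0.05 in that comparison, where 21.1% of all tested targets were called and 15.5% were called higher. They differ by 1 base (T19A), and how much of the signal of each comes from the other RNA was not tested. At an unadjusted p under 0.05 there were 3 members, beside 43.0% of all targets. Within slide rows 1 and 2 the changes were 1.42 and 1.29 for the miR-23a target and 1.08 and 1.69 for the miR-23b target. Here and below, row 1 holds sOVA host replicates 1 and 2, WT host replicate 1 and naive replicate 1. Row 2 holds sOVA host replicate 3, WT host replicate 2 and naive replicate 2. Row and sOVA host replicate 3 therefore cannot be told apart, and values within rows have no spread of their own. The calls were sensitive to single arrays and to the filter. Leaving out sOVA host replicate 3 kept both, at 1.62 for the miR-23a and 1.30 for the miR-23b target (adjusted p = 0.00728 and 0.0127, limma). Both also passed in a fit that blocked for slide row (adjusted p = 0.0107 and 0.0134, limma). Quantile normalization kept them too (adjusted p = 0.0232 and 0.0285, limma), as did testing only targets detected on all 7 arrays (adjusted p = 0.0234 and 0.0228, limma). With no detection filter the changes stayed at 1.44 and 1.36 and neither was called (adjusted p = 0.0756 for the miR-23a and 0.0797 for the miR-23b target, limma). The miR-23a target had changes of 1.65 and 1.24 without naive replicate 1 or 2 (adjusted p = 0.117 and 0.186, limma) and of 1.39 and 1.31 without sOVA host replicate 1 or 2 (adjusted p = 0.0599 and 0.063, limma). For the miR-23b target the changes were 1.58 and 1.14 without naive replicate 1 or 2 (adjusted p = 0.1 and 0.177, limma) and 1.36 without sOVA host replicate 2 (adjusted p = 0.0559, limma). When all probes, not the 253, set the 75th percentile, the median of all targets was -0.70 instead of 0.11. The changes were then 0.62 and 0.54 and neither was called (adjusted p = 0.563 and 0.592, limma). Per array 309 to 467 of the 1874 probes were detected, so this percentile lay among probes near or below the limit of detection.

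The merged probes were also fitted singly. UC1004826, a base shorter than the miR-23a target, had a log2 change of 1.40 (adjusted p = 0.0231, limma) and UC1004829, a base shorter than the miR-23b target, one of 1.24 (adjusted p = 0.0244, limma) in a fit of all probes without merging. Both values are for the sOVA host against naive. The longer miR-27a probe UC1004849 had changes of 0.33 in the sOVA host and -0.24 in the WT host (adjusted p = 0.724 and 0.812, limma), the second opposite in sign to that of UC1004848. The longer miR-27b probe UC1004852 had changes of -0.20 and 1.33 (adjusted p = 0.734 and 0.0874, limma). Probes of a pair detect the same RNA and are not independent.

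In the WT host the miR-23 seed targets lay between the other groups. The log2 change from naive was 0.94 ± 0.29 (SE) for the miR-23b target (adjusted p = 0.0677, limma) and 0.53 ± 0.33 (SE) for the miR-23a target (adjusted p = 0.279, limma). With sOVA host replicate 3 left out, which enters here only through the shared spread, the change of the miR-23b target was still 0.94 and was called (adjusted p = 0.0256, limma). The miR-23b target was also called when slide row was a block (adjusted p = 0.049, limma), and its changes within rows 1 and 2 were 0.84 and 1.05. Scaled by the 75th percentile over all probes, the WT host changes were 0.43 for the miR-23b target and 0.01 for the miR-23a target (adjusted p = 0.739 and 0.992, limma).

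The miR-24 target was lowest in naive cells and did not pass in any comparison in the fit of all 7 arrays without a block. It was at 0.89, 0.93 and 0.20 in the sOVA host, 0.48 and 0.17 in the WT host and -0.25 and -0.64 in naive cells. Every activated array lay above both naive arrays, and the hosts overlapped. The log2 change from naive was 1.12 ± 0.33 (SE) in the sOVA host (adjusted p = 0.0593, limma) and 0.77 ± 0.36 (SE) in the WT host (adjusted p = 0.184, limma). When sOVA host replicate 3 was left out, these were 1.35 (adjusted p = 0.0127, limma) and 0.77 (adjusted p = 0.045, limma), both called. A block for slide row gave a sOVA host change of 1.04, called (adjusted p = 0.0212, limma). Within rows 1 and 2 it was 1.16 and 0.84 in the sOVA host, and 0.72 and 0.81 in the WT host. Scaled by the 75th percentile over all probes, the changes were smaller, 0.30 in the sOVA host and 0.25 in the WT host (adjusted p = 0.835 and 0.871, limma).

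The miR-27a and miR-27b targets, which differ by 1 base, did not follow each other. The miR-27b target was at -2.19, -2.46 and -1.41 in the sOVA host, -0.30 and -0.88 in the WT host and -1.84 and -2.15 in naive cells. Both WT host arrays lay above all others, whereas the sOVA host and naive arrays overlapped. Its log2 change from naive in the WT host was 1.40 ± 0.43 (SE), 2.64-fold (adjusted p = 0.0722, limma), with 1.54 and 1.26 within slide rows 1 and 2. The fit that left out sOVA host replicate 3 kept the change at 1.40 and called it (adjusted p = 0.0143, limma). In the sOVA host the change was -0.03 ± 0.40 (SE; 95% confidence interval -0.99 to 0.93; adjusted p = 0.954, limma). Within rows 1 and 2 it was -0.49 and 0.73, and the row 2 value rests on sOVA host replicate 3 alone. Replicates 1 and 2 lay below both naive arrays. Without replicate 3 the change was -0.33, not called (adjusted p = 0.387, limma). With the 75th percentile taken over all probes the changes were -0.85 in the sOVA host and 0.89 in the WT host (adjusted p = 0.33 and 0.467, limma).

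The miR-27a target was at 0.43, 0.01 and -1.48 in the sOVA host, -0.66 and -0.96 in the WT host and -0.72 and -1.01 in naive cells. The sOVA host arrays held both the highest and the lowest of the 7 values, and the WT host and naive arrays overlapped. The log2 change from naive was 0.52 ± 0.58 (SE) in the sOVA host (adjusted p = 0.515, limma) and 0.05 ± 0.63 (SE; 95% confidence interval -1.48 to 1.59) in the WT host (adjusted p = 0.951, limma). Leaving out sOVA host replicate 3 gave a sOVA host change of 1.09, which was called (adjusted p = 0.0276, limma). Within row 1 it was 0.94, against -0.47 within row 2, which holds that replicate. With the 75th percentile taken over all probes both changes were negative, at -0.30 and -0.46.

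UC1004856 and UC1004857, with 2 differences each from miR-27a-3p, had the lowest levels of the tested members, from -5.25 to -3.93 for UC1004856 and from -5.55 to -4.40 for UC1004857 over the 7 arrays. Their groups overlapped in the comparisons with naive cells. In the sOVA host they were -0.26 and -0.21 against naive (adjusted p = 0.61 and 0.68, limma), and in the WT host 0.30 and 0.28 (adjusted p = 0.599 and 0.611, limma). With the 75th percentile taken over all probes the WT host changes were -0.21 and -0.24. UC1004857 was not detected on sOVA host replicate 3. UC1004856 is 1 base away from the miR-27b target (G20T). How much of its signal comes from miR-27b was not tested.

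Over the 7 tested members the median log2 change was 0.52 in the sOVA host, with 4 above 0, beside a median of 0.11 and 52.6% above 0 for all 342 targets. In the WT host the median was 0.53, with 7 above 0, beside 0.27 and 58.8% for all targets. The count of 7 became 4 with the 75th percentile taken over all probes and 5 with quantile normalization, and in the sOVA host the count of 4 became 3 and 4. No member passed in the WT host (0 of 7, limma; 2 at an unadjusted p under 0.05). There 18.7% of all targets were called, 12.9% higher, and 36.8% had an unadjusted p under 0.05. Groups did not overlap for 3 members in the sOVA host comparison and for 4 in the WT host comparison, where 61.7% and 75.7% of all targets had such groups. The members without overlap were all higher in the activated cells, beside 32.2% and 44.4% of all targets.

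The next comparison asked whether the seeds differed between the hosts. In the fit of all 7 arrays without a block no member passed, and the estimates differed in sign between the miR-27b target and the other mouse targets. The miR-27b target averaged -2.02 ± 0.54 (SD, n = 3) in the sOVA host and -0.59 ± 0.41 (SD, n = 2) in the WT host. That is a log2 difference of -1.43 ± 0.40 (SE), 2.70-fold lower (adjusted p = 0.331, limma), with -2.03 and -0.53 within slide rows 1 and 2. The miR-23a target had a log2 difference of 0.91 ± 0.30 (SE; adjusted p = 0.331, limma), with 1.01 and 0.63 within rows 1 and 2. The miR-23b, miR-24 and miR-27a targets had differences of 0.41 (95% confidence interval -0.22 to 1.05), 0.35 (-0.46 to 1.16) and 0.47 (-0.93 to 1.87). All 3 intervals hold both 0 and differences above 1 log2 unit, so the p-values do not show that the hosts were alike.

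Of all tested targets 0.0% were called between the hosts by limma and 12.0% had an unadjusted p under 0.05; among the 7 members the counts were 0 and 2. Host groups did not overlap for 3 members, beside 23.4% of all targets. Of those members 2 were higher in the sOVA host, beside 5.56% of all targets. A fit that left out sOVA host replicate 3 called 65 targets, 3 of them members. The miR-27b target then had a log2 difference of -1.74 (adjusted p = 0.023, limma). The miR-27a target had one of 1.03 (adjusted p = 0.0468, limma), and the miR-23a target was also called higher (adjusted p = 0.0322, limma). For the miR-23b and miR-24 targets the differences were 0.36 and 0.59, neither called (adjusted p = 0.334 and 0.144, limma). The 3 calls depend on leaving out 1 of 3 arrays.

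Ratios between targets on the same array do not depend on the scaling factor of the array. The log2 ratio of miR-27b to miR-27a target signal was -2.63, -2.47 and 0.07 in the sOVA host, 0.36 and 0.08 in the WT host and -1.12 and -1.14 in naive cells. Only differences between arrays can be read from it, since probes differ in efficiency. Both naive arrays lay within 0.01 of their mean, the WT host arrays lay 1.49 and 1.21 above the naive mean, and sOVA host replicates 1 and 2 lay at -1.50 and -1.34 from it. sOVA host replicate 3 lay 1.19 above it, beside the WT host arrays and not beside its own group.

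The miR-23b to miR-23a ratio placed the same arrays low, intermediate and high, over a smaller range. It was -0.90, -0.96 and -0.22 in the sOVA host, -0.16 and -0.22 in the WT host and -0.60 and -0.62 in naive cells. Relative to naive cells, sOVA host replicates 1 and 2 thus had less miR-27b and miR-23b target signal per miR-27a and miR-23a target signal. Both WT host arrays and sOVA host replicate 3 had more. With 3 and 2 arrays no test was run on the ratios, and the spread of the sOVA host (SD 1.51 and 0.41) exceeds its difference from the naive mean.

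Within the Mir23b cluster, the log2 ratio of miR-27b to miR-23b target signal was -2.39, -2.75 and -1.83 in the sOVA host, -0.30 and -0.66 in the WT host and -0.94 ± 0.09 in naive cells (SD, n = 2). Here sOVA host replicate 3 lay with its own group, and all 3 groups stood apart without overlap, naive cells in between. Within the Mir23a cluster, the ratio of miR-27a to miR-23a target signal was -0.66, -1.25 and -2.11 in the sOVA host, -0.82 and -0.96 in the WT host and -0.48 and -0.36 in naive cells. Every activated array lay below both naive arrays, and the hosts overlapped.

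The ratio of the miR-23a to the miR-24 target varied less between arrays. It was, on the log2 scale, 0.20, 0.33 and 0.43 in the sOVA host, -0.32 and -0.17 in the WT host and 0.01 and -0.01 in naive cells. The ratio ordered the groups without overlap, the sOVA host above naive and the WT host below. The miR-27a to miR-24 ratio was -0.46, -0.92 and -1.68 in the sOVA host, -1.14 and -1.14 in the WT host and -0.47 and -0.37 in naive cells. Relative to miR-24, miR-27a was thus lower on both WT host arrays than on either naive array, and lowest on sOVA host replicate 3. The miR-23b to miR-24 ratio was -0.69, -0.64 and 0.21 in the sOVA host. It was -0.48 and -0.40 in the WT host and -0.59 and -0.63 in naive cells, so the sOVA host overlapped both groups. For miR-27b to miR-24 no groups overlapped, with -3.08, -3.39 and -1.62 in the sOVA host. The WT host had -0.77 and -1.06 and naive cells -1.59 and -1.51. sOVA host replicate 3 lay next to the naive arrays and far from replicates 1 and 2, so its separation from naive cells is narrow. How often ratios of other targets separate the groups was not tested.

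Control probes on the arrays show how signal changes when a probe mismatches the miR-27a target at a single position. Each array carries 21 control probes, 1 spot each, that mismatch the miR-27a target at 1 position. Their signal, as a percent of the matched probe on the same array, was highest for mismatches at the ends. The median over the 7 arrays was 89.3% at position 1 (T1A) and 77.1% at position 21 (C21G), but 2.27% at position 5 (C5G), 0.262% at position 11 (C11G) and 1.25% at position 18 (C18G). At position 12 (T12A) it was 26.1%. Position 19, where miR-27a and miR-27b differ, gave a median of 7.26% (C19G). That control probe mismatches both RNAs at this position, so it does not measure directly how much miR-27b binds the miR-27a probe.

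The C19G probe also varied between arrays. It gave 5.09%, 4.97% and 13.3% of the matched probe in the sOVA host, 12.2% and 10.2% in the WT host and 7.26% and 6.09% in naive cells. The arrays that were low, intermediate and high are those of the miR-27b to miR-27a ratio. Of the 21 control probes, C19G was the one with both WT host arrays above and sOVA host replicates 1 and 2 below both naive arrays; 17 had sOVA host replicates 1 and 2 above both naive arrays. The C21G probe gave 77.1%, 77.7% and 57.1% in the sOVA host, 61.7% and 57.8% in the WT host and 79.2% and 77.4% in naive cells, so it separated the WT host arrays and sOVA host replicate 3 from the other 4.

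The other arms of the same hairpins were mostly dim. Of the 6 miR-5p arms of both clusters, 5 had a probe and miR-24-2-5p was the 1 detected. It was at -3.67, -4.13 and -6.07 in the sOVA host, -5.06 and -5.47 in the WT host and -5.46 and -5.85 in naive cells, with sOVA host replicate 3 below the detection limit. The highest arrays were sOVA host replicates 1 and 2, as for the miR-27a target, and the value of replicate 3 has no rank. The log2 change from naive was 1.03 in the sOVA host and 0.39 in the WT host (adjusted p = 0.312 and 0.729, limma). Probes for miR-23a-5p, miR-27a-5p, miR-27b-5p and miR-24-1-5p were detected on 0 arrays.

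Among the 335 tested targets that are not members, those most like each seed's brightest member over the 7 arrays were named. The 2 most like the miR-27a target were UC1004837 (r = 0.99) and the miR-24-2-5p target UC1004836 (r = 0.98). UC1004837 was detected on 5 arrays and UC1004836 on 6, so both correlations include values not well above background. Their targets are shown because both resemble the 5p arm of Mir24-2, in the same cluster as Mir27a, with bases 2 to 8 in capitals.
UC1004837: tGCCTACTgagctgaaacacag
UC1004836: gTGCCTACtgagctgaaacagt

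The first 19 bases of UC1004837 lie within the Mir24-2 hairpin, as do all 22 bases of UC1004836, and the targets overlap. Next came UC1004775 (r = 0.96), 1 base from miR-16-5p (C21T). For the miR-23a target the most alike were UC1005121 (r = 0.96), 2 bases from miR-146a-5p (T17A and T22G), the miR-146a-5p target (r = 0.95) and the miR-191-5p target (r = 0.95). The miR-24 target was most like UC1005155 (r = 0.97), 1 base from miR-155-5p (T12C), the miR-155-5p target (r = 0.97) and the miR-652-3p target (r = 0.96). Known for their rise in activated T cells, miR-146a and miR-155 had log2 changes of 4.08 and 4.05 in the sOVA host against naive (adjusted p = 0.0175 and 0.0221, limma). In the WT host they had changes of 2.46 and 2.63, neither called (adjusted p = 0.0872 for both, limma). The other activation markers checked, miR-21a-5p and miR-182-5p, were called higher than naive in both hosts. Each had adjusted p = 0.0017 in the WT host and 0.00233 in the sOVA host (limma). For miR-21a-5p the log2 changes were 3.37 in the WT host and 2.84 in the sOVA host. No size is given for miR-182-5p, which was not detected in naive cells. The correlations with targets that are not members rest on 7 arrays that share depth and group differences. Among the members themselves r was 0.93 for miR-23a with miR-24, 0.88 for miR-23a with miR-23b, 0.70 for miR-27a with miR-24 and -0.45 for miR-27a with miR-27b.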

How the data were processed

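Total RNA was extracted with Trizol and labelled with Cy3 using an Exiqon kit, per the labels' protocols, and 250 ng was named in the design text. Per the file headers, the scanner intensity values are linear and were background-corrected and detrended in Feature Extraction 9.5.1.1, without scaling between arrays. Version 10.6 is the one in the submitters' processing notes. The deposited value table was not used, because 0 of its rows carry a member's identifier. Spot flags were used as deposited.

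Control and outlier-flagged spots were left out, and log2 values of a probe's spots were averaged. The target is the reverse complement of the probe without its last 10 T and, in 1857 of 1874 probes, its leading G. Arrays were scaled as described in the report. limma 3.58.1 in R 4.3.3 (lmFit, eBayes, group means, 7 arrays) tested 342 targets, with Benjamini-Hochberg adjustment over all of them and a threshold of 0.05. The fit was also run on simulated data with known changes. These had independent normal noise and no outlying array, so they do not cover an array like sOVA host replicate 3. Members were named by RefSeq matures sharing their start within 3 bases of length (7 of 13 probes matched). Every member detected on all arrays of a group is named, with all 5p arms and the 3 most alike targets per seed. Members, lists and alternatives were chosen with earlier results of these data known. The 7 arrays shared 1 slide and 1 scan time and lay in 2 rows, 4 in row 1 and 3 in row 2, which were also used as a block. The number of arrays limits the precision.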

Additional observations from a re-analysis of the deposited data

Results flagged for a closer look

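The C19G control probe of the miR-27a target, outside the probes tested, averaged 11.2% of its matched probe on the WT host arrays, above the naive arrays (mean 6.67%). It is given because this signal lies in control spots that no comparison used. With 1 spot per array it has no spot replicate, and 10 of the 21 control probes had both WT host arrays above both naive arrays.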

How the results depend on the processing

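With 7 arrays, calls moved with single arrays and with scaling. For sOVA host minus naive, 72 targets and 2 members were called. With the 75th percentile over all probes the fit called 0 members, and 24 higher and 44 lower targets against 53 and 19. That percentile lies near or below the limit of detection. No detection filter gave 25 targets and 0 members, detection on all 7 arrays 34 targets, slide row as a block 125 targets, and leaving out both dim arrays 151 targets and 4 members. Leaving out 1 array gave 12 to 126 targets and 0 to 4 members. For WT host minus naive, 64 targets and 0 members were called, against 39 with the 75th percentile over all probes (19 higher and 20 lower, against 44 and 20), 41 with normexp, 16 with no filter, 25 with detection on all arrays, 109 targets and 1 member with slide row as a block, and 124 targets and 2 members without both dim arrays. Leaving out 1 array gave 17 to 158 targets and 0 to 3 members. For sOVA host minus WT host, 0 targets were called, against 47 targets and 1 member without both dim arrays, and leaving out 1 array gave 0 to 65 targets and 0 to 3 members. Among fits that left out 1 array, the highest count of targets in each comparison is the one without sOVA host replicate 3. Without naive replicate 1 or 2 they were 12 and 13 in the sOVA host and 20 and 18 in the WT host, and without sOVA host replicate 1 or 2 they were 44 and 45 in the sOVA host. Without WT host replicate 1 or 2 they were 27 and 17 in the WT host. An array left alone in its group is assumed to vary like the others. Quantile normalization gave 34 higher and 28 lower targets in the sOVA host.

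The labels do not state whether same-numbered arrays were paired. Their deviations from the group means correlated between -0.60 and 0.35. In a group of 2 arrays the deviations mirror each other, so these correlations cannot decide whether arrays were paired. With replicate number as a block, 104 targets and 4 members were called in the sOVA host, 139 targets and 2 members in the WT host, and 27 targets and 1 member, the miR-27b target (-1.74, adjusted p = 0.0276, limma), between hosts. Number 3 occurs once, so this block gives sOVA host replicate 3 no weight in the changes.

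With the 75th percentile over all probes the median of all targets in the WT host was -0.24 instead of 0.27. There the miR-27a target had -0.46 with the 75th percentile over all probes, -0.088 with quantile normalization, -0.09 without naive replicate 2 and a range of -0.10 to 0.20 when 1 array was left out. UC1004856 had -0.21 with the 75th percentile and -0.10 to 0.70 with 1 array left out, and UC1004857 had -0.24, -0.10 with quantile normalization and -0.12 to 0.68 with 1 array left out. In the sOVA host the miR-27a target had -0.30 with the 75th percentile. With 1 array left out the miR-27b target had -0.33 to 0.19 and UC1004857 had -0.48 to 0.063. UC1004857 had 0.078 with normexp. Where a cause is not shown by fewer arrays or targets, the cause was not tested. Of the other single-target values under an alternative, 287 kept direction and side of the threshold, 20 passed and 11 no longer passed. Signal over background limits UC1004857, detected on 6 of 7 arrays, and the dim arrays.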
